A study of Bos taurus with 18 samples.

Results

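The let-7 and miR-98 family was followed in the plasma of 3 Japanese Black steers during fattening. The family was taken by name as the rows *bta-let-7a-5p*, *bta-let-7b*, *bta-let-7c*, *bta-let-7d*, *bta-let-7e*, *bta-let-7f*, *bta-let-7g*, *bta-let-7i* and *bta-miR-98*, which are 9 of the 1071 miRNAs listed. The prefix bta (Bos taurus) is left out in the text that follows. All 9 passed the filter on low counts (counts-per-million, CPM, above 5 in no fewer than 3 libraries of a fraction), as did 345 miRNAs in the exosomal fraction and 358 in the free circulating fraction. Jugular blood was drawn at about 20, 25 and 30 months of age, and each of the 9 plasma samples gave 1 library of exosomal RNA (EX, RNA from vesicles released by cells) and 1 of non-exosomal free circulating RNA (FC). The 18 libraries form 6 groups of 3, with 1 library per steer in each group. Steer numbers are the replicate numbers of the labels, taken as the same animal across ages and fractions, which the labels do not state. The steers shared a farm and a feeding system, carried no treatment or engineered allele, and were the same animals at every age, so age and time of sampling cannot be told apart. The fractions were separated by a spin column kit, and miRNA counts hold no marker that would check this separation.

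The let-7 miRNAs are among the most conserved miRNAs of animals. A miRNA guides a silencing complex to messenger RNAs that pair with its seed, the bases near its 5′ end, and miRNAs with the same seed can reach overlapping targets. The family is known for holding back growth genes such as *HMGA2* and *RAS* genes in differentiated cells, the RNA-binding protein LIN28 blocks the processing of its precursors, and its members are abundant in blood cells and plasma.

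The mature sequences are shown because all members share the seed and differ in few other bases, which sets how well reads can be assigned to 1 member. They are given 5′ to 3′ as deposited with the counts, with the seed (bases 2 to 8) in capitals.
bta-let-7a-5p: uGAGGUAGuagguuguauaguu
bta-let-7b: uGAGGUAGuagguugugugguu
bta-let-7c: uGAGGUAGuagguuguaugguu
bta-let-7d: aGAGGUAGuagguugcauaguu
bta-let-7e: uGAGGUAGgagguuguauagu
bta-let-7f: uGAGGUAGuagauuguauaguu
bta-let-7g: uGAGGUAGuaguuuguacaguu
bta-let-7i: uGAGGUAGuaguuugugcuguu
bta-miR-98: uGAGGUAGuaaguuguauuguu

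The seed GAGGUAG was found in 9 miRNAs of the table, all of them members. Against let-7a-5p, with its base first and positions counted from 1 at the 5′ end, let-7c carried A19G, let-7e U9G and let-7f G12A. Single changes therefore set these members apart from let-7a-5p, although let-7e is also 1 base shorter, with 21 bases against 22. let-7b carried A17G and A19G, let-7d U1A and U16C, let-7g G12U and U18C, and miR-98 G11A and A19U. The most distant member, let-7i, carried G12U, A17G, U18C and A19U. Of the 36 pairs of members, 4 differed at 1 position and no pair at more than 6. A read from the 5′ end must reach base 19 to tell let-7a-5p from let-7c, and base 17 to tell let-7g from let-7i or let-7b from both let-7a-5p and let-7c. For let-7f the base is 12, for miR-98 it is 11 and for let-7e it is 9, while let-7d differs at base 1.

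Most deposited counts of the members were not whole numbers, as is found where a counting tool divides a read among several miRNAs or loci. Counts of let-7a-5p, let-7b, let-7c, let-7e and let-7g were whole numbers (within 1e-06) in 0 of 18 libraries. let-7i, the member with the most substitutions, had multiples of 0.5 in all 18 libraries. The level of a single member can thus include parts of reads, whereas the family sum is not changed by reads divided between members.

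Libraries held 991354 to 2778618 miRNA counts in EX and 3615234 to 12088735 in FC, and the shallowest library of each fraction was taken at 30 months. A floor of 3 counts was at most 3.03 CPM in EX and 0.83 CPM in FC, which covers counting error only, since reads copied by PCR are not independent. The lowest value of a member in any library was 52.6 CPM. In 4 FC libraries (steer 3 at 25 months and all steers at 30 months) the counts in the lower part of the table stood 1 row away from the CPM values. Of the members this touched miR-98, whose deposited counts of 151, 101, 120 and 199 in these libraries were replaced by 5672, 1623, 918 and 1221, as its CPM values require. Which of the 2 deposited tables is right was not checked against reads.

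In EX, let-7b was the most abundant member, with 7977 to 26726 CPM over the 9 libraries (median 14192) and a rank between 8 and 26 among all miRNAs of a library. let-7i followed with 5440 to 13284 CPM (median 7256), let-7g with 2909 to 7974 CPM (median 6261), let-7a-5p with 3411 to 5956 CPM (median 4272) and let-7f with 2232 to 4304 CPM (median 2636). These 5 members stood above the other 4 in all libraries of EX. let-7c had 899 to 1635 CPM (median 1503), let-7d 553 to 1284 CPM (median 1033), miR-98 72.8 to 489 CPM (median 309) and let-7e 58.9 to 609 CPM (median 209). Among neighbours in this order, only let-7f with let-7c and let-7d with miR-98 had ranges that did not overlap. let-7b exceeded let-7i in 9 of 9 libraries, although their ranges overlapped, whereas let-7i exceeded let-7g in 6 of 9.

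In FC, let-7i and not let-7b had the highest mean. let-7i had 8277 to 15100 CPM (median 11728) and let-7b 7793 to 13436 CPM (median 10545), and let-7i was the higher in 6 of 9 libraries. let-7g had 2712 to 13895 CPM (median 8464), let-7a-5p 1871 to 6056 CPM (median 4029) and let-7f 1524 to 5539 CPM (median 2998). At the lower end, let-7c had 406 to 1685 CPM (median 1341), let-7d 693 to 1525 CPM (median 1037), miR-98 254 to 723 CPM (median 397) and let-7e 52.6 to 208 CPM (median 94.6). Only miR-98 and let-7e, the last pair, had ranges that did not overlap. All levels are per mature miRNA, and with lengths of 21 or 22 bases no scaling by length was made.

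**Figure D1:**
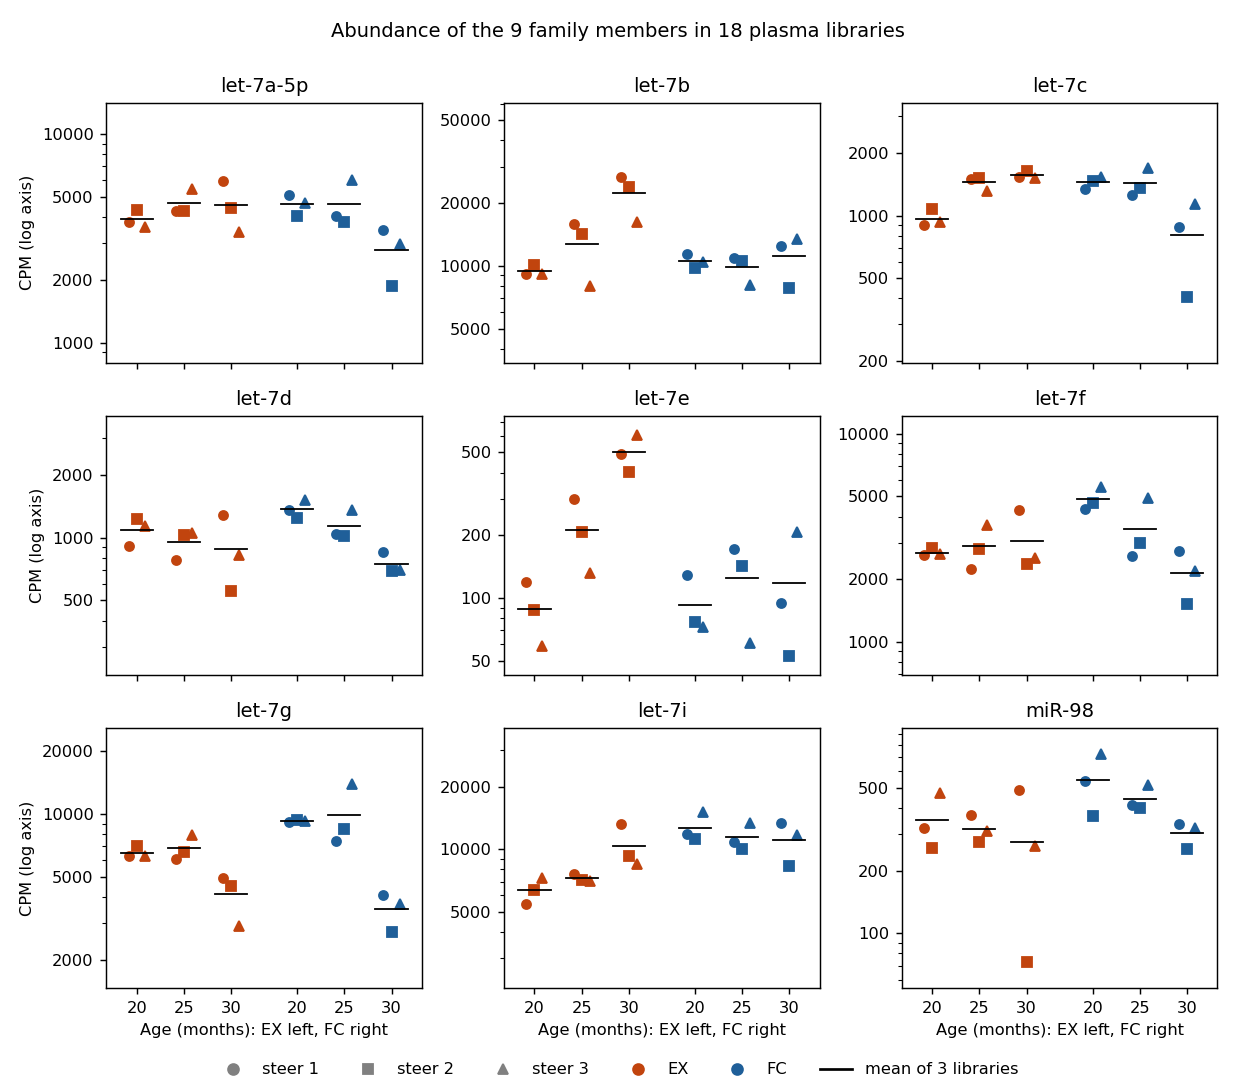
CPM of each member (log axis, each panel spanning the same fold range) in 18 libraries, with EX in orange on the left and FC in blue on the right of each panel, and age in months on the horizontal axis. Symbols are steers and black lines the mean of 3 libraries; let-7e and let-7b stand highest in EX at 30 months, let-7g stands lowest at 30 months in both fractions, and miR-98 of steer 2 in EX at 30 months (72.8 CPM) lies far below its group.

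The family sum ran from 2.36% to 5.90% of all miRNA counts of a library. In EX the sums in steers 1, 2 and 3 were 29517, 33227 and 31528 CPM at 20 months, 39096, 37969 and 34882 CPM at 25 months, and 58996, 47153 and 36797 CPM at 30 months. The share of all counts was 3.14 ± 0.186%, 3.73 ± 0.218% and 4.76 ± 1.11% (mean ± SD, n = 3 each). In CPM the EX libraries at 20 months all lay below those at 25 months, and the values at 30 months spread widely, with steer 3 inside the range of 25 months. TMM scaling sets libraries to a common trimmed and weighted mean of miRNAs. With it 20 months (27154 to 39838 CPM) overlapped with 25 months (38538 to 46943 CPM). The mean at 30 months (39639 CPM) lay below that at 25 months (42676 CPM), so the order of the later ages turned with the scaling.

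In FC the sums were 45130, 42255 and 48856 CPM at 20 months, 38728, 38760 and 49995 CPM at 25 months, and 38211, 23582 and 36398 CPM at 30 months, or 4.54 ± 0.331%, 4.25 ± 0.650% and 3.27 ± 0.797% of all counts (mean ± SD, n = 3 each). In CPM all FC libraries at 30 months lay below all those at 20 and 25 months, with a narrow gap to 25 months (38211 against 38728 CPM). With TMM scaling 30 months (23511 to 37199 CPM) overlapped with 25 months (33797 to 68097 CPM) and not with 20 months (38576 to 47137 CPM), and the mean at 25 months (46927 CPM) lay above that at 20 months (44078 CPM). The lowest sum of the 18 libraries was that of steer 2 in FC at 30 months. No p value is given for the sums, because the members were chosen with results of these data known.

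The makeup of the family differed between 30 months and the earlier ages in both fractions, and shares of the family do not depend on how libraries are scaled. In EX, let-7b held 30.1 ± 0.968% of the family sum at 20 months, 33.7 ± 9.53% at 25 months and 46.7 ± 3.57% at 30 months (mean ± SD, n = 3 each), and every library at 30 months (44.1% or more) lay above every earlier one (at most 40.8%). let-7g held 20.7 ± 0.774%, 18.5 ± 3.84% and 8.61 ± 0.853%, again with no overlap between 30 months and the earlier ages. let-7i held 20.2 ± 2.46%, 19.5 ± 0.739% and 21.8 ± 1.86%. The rare let-7e held 0.286 ± 0.112%, 0.565 ± 0.196% and 1.11 ± 0.470%.

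The FC shares of let-7b and let-7g differed in the same directions. let-7b held 23.2 ± 1.89%, 23.9 ± 6.66% and 34.1 ± 2.42% of the sum at 20, 25 and 30 months, and let-7g 20.5 ± 1.63%, 22.9 ± 4.39% and 10.8 ± 0.678% (mean ± SD, n = 3 each). let-7i held 27.8 ± 2.65%, 26.9 ± 1.06% and 34.1 ± 1.62%. For all 3 members the FC libraries at 30 months lay outside the range of the earlier ones. let-7a-5p also held less at 30 months than in any earlier library, in EX (12.4 ± 0.862%, 12.6 ± 2.63% and 9.57 ± 0.456%) and in FC (10.2 ± 1.02%, 10.8 ± 1.19% and 8.41 ± 0.633%). let-7d and let-7f in both fractions lay lower at 30 than at 20 months only, and let-7c in FC lower than at 25 months only. Shares of 1 sum move together, and no other miRNAs give a background for them.

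**Figure D2:**
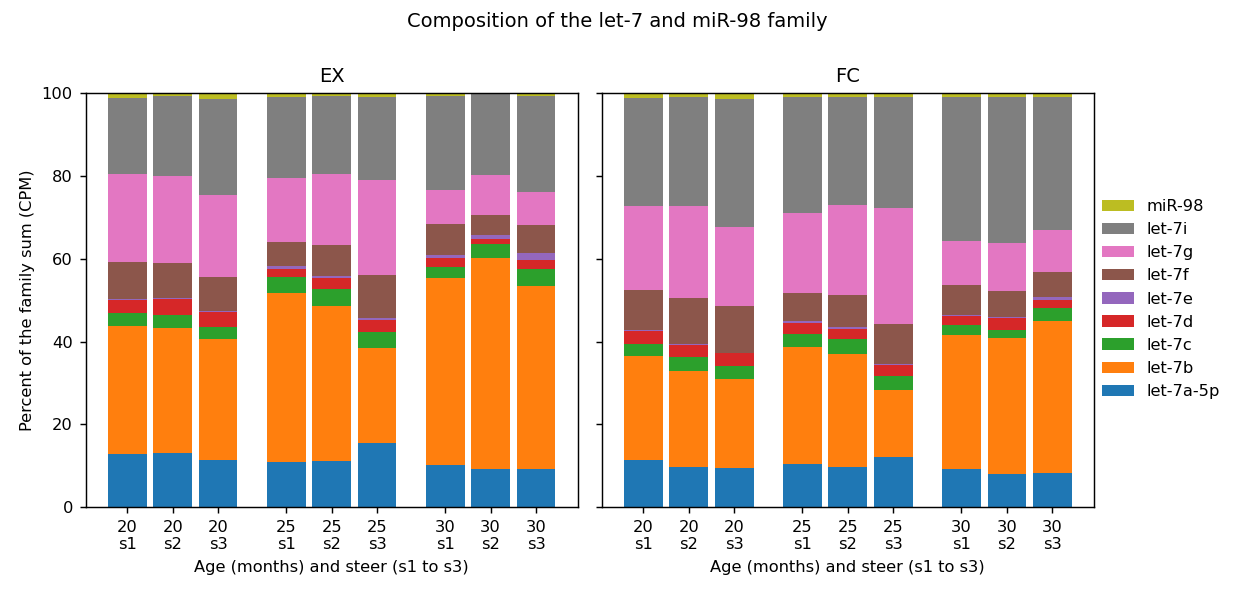
Percent of the family sum (vertical axis) held by each member in each library, by age in months and steer, for EX (left) and FC (right). The let-7b part is wider and the let-7g part narrower at 30 months in both fractions, and the plasma of steer 3 at 25 months has the widest let-7g part of each fraction (22.9% in EX and 27.8% in FC).

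The number of let-7b counts per let-7g count puts these shifts in 1 value per library. In EX the ratio lay between 1.44 and 1.47 at 20 months, between 1.00 and 2.63 at 25 months and between 5.31 and 5.57 at 30 months. The ranges in FC, by age, were 1.05 to 1.24, 0.585 to 1.47 and 2.87 to 3.63. The 3 EX libraries at 30 months lay close together and above every other library, and the FC libraries at 30 months lay above all those at 20 and 25 months. This pair was chosen after its values were seen, so the ratio is a description without a test. The low end at 25 months came from steer 3 in both fractions (1.00 and 0.585).

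**Figure D3:**
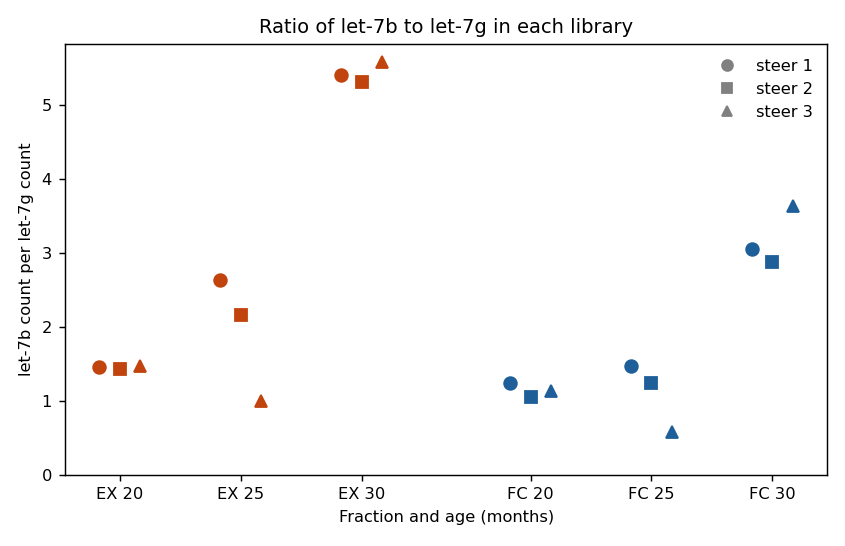
Number of let-7b counts per let-7g count (vertical axis, linear from 0) in each library, by fraction and age in months; symbols are steers. At 30 months EX stands between 5.31 and 5.57 and FC between 2.87 and 3.63, above the earlier libraries of their fraction.

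Ages were compared within each fraction with edgeR (quasi-likelihood F test, TMM normalization) over all miRNAs that passed the filter, with steer as a block. A member was called at a false discovery rate (FDR, Benjamini-Hochberg adjusted over all miRNAs tested) under 0.05 and |log2 fold change| > 1. Changes are relative to the scaling of the libraries, and the median of all miRNAs moved with it. In EX from 25 to 30 months the median log2 fold change of all miRNAs was −0.51 under TMM and −0.04 with library totals only, and from 20 to 30 months it was −0.64 and −0.30.

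In EX from 25 to 30 months, 1 of 9 members was called, and it was lower at 30 months. Over all miRNAs 14.2% were called, 10.4% lower and 3.77% higher. The member was let-7g, with 6064, 6559 and 7974 CPM in steers 1, 2 and 3 at 25 months against 4940, 4508 and 2909 CPM at 30 months. Every value at 30 months lay below every value at 25 months. The log2 fold change was −1.22 (standard error 0.33, FDR 0.0411 by edgeR), with a fall in 3 of 3 steers. This call stood near the threshold, and it was lost when any 1 steer was left out (log2 fold change −0.77 to −1.61, FDR 0.0609 to 0.153) or when the plasma of steer 3 at 25 months alone was left out (−0.87, FDR 0.119). Scaled to library totals only, the log2 fold change was −0.76 (FDR 0.0944), and with DESeq2 size factors −1.16 (FDR 0.0689).

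The other members of EX showed values on both sides of 0 between 25 and 30 months. let-7b had 15964, 14192 and 7977 CPM at 25 months against 26726, 23943 and 16212 CPM at 30 months, with no overlap in CPM, and was higher in 3 of 3 steers under either scaling. Under TMM its log2 fold change was 0.38 (standard error 0.26, FDR 0.377 by edgeR), beside a median of −0.51 for all miRNAs. On the CPM scale 4 members (let-7b, let-7c, let-7e and let-7i) lay higher at 30 months without overlap, against 18% of all miRNAs tested, and let-7g lay lower, against 19.4%. With TMM scaling 0 members lay higher without overlap, against 10.7% of all miRNAs, and let-7c and let-7g, 2 members, lay lower, against 25.5%. let-7c turned with the scaling, being higher at 30 months in 3 of 3 steers on the CPM scale and in 0 of 3 under TMM. let-7i was higher in 3 of 3 steers on the CPM scale and in 2 of 3 under TMM. The median log2 fold change of the members was −0.38, beside −0.51 for all miRNAs.

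Between 20 and 30 months in EX, 1 member was called, the rare let-7e, and it was higher at 30 months. Over all miRNAs 13.3% were called, 3.48% higher and 9.86% lower. let-7e stood at 120, 87.6 and 58.9 CPM in steers 1, 2 and 3 at 20 months, at 300, 209 and 131 CPM at 25 months and at 489, 403 and 609 CPM at 30 months. The values were higher at each later age in every steer, and the 3 ages did not overlap in CPM. The log2 fold change from 20 to 30 months was 2.20 (standard error 0.45, FDR 0.0144 by edgeR). Without steer 1 or without steer 3 the value stayed above 1 on the log2 scale (2.32 and 1.77), but the call was lost (FDR 0.113 and 0.108).

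Further members came near a call between these ages. let-7b had 9164, 10058 and 9182 CPM at 20 months, below all 3 values at 30 months given above. Its log2 fold change was 0.84 (standard error 0.27, FDR 0.0840 by edgeR). With library totals only it was 1.19 (FDR 0.0226), past both thresholds, and without 1 steer 0.55 to 1.04 (FDR 0.114 to 0.247). let-7g had 6283, 7008 and 6261 CPM at 20 months, above all 3 at 30 months, with a log2 fold change of −1.01 (standard error 0.32, FDR 0.0826). The remaining 6 members lay between −0.95 and 0.34 with FDR of 0.323 or more. In CPM 4 members (let-7b, let-7c, let-7e and let-7i) lay higher at 30 than at 20 months without overlap, against 17.7% of all miRNAs, and let-7g lay lower, against 21.4%. With TMM scaling 2 members (let-7b and let-7e) lay higher, against 11.3%, and let-7g lay lower, against 28.7%.

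Between 20 and 25 months in EX, 0 members and 0.29% of all miRNAs were called by edgeR, with let-7c (log2 fold change 0.68, standard error 0.23) and let-7e (1.34, standard error 0.44) the 2 members at unadjusted p under 0.05, beside 8 of all 345 miRNAs. For both, FDR was 0.997 and the CPM values of the 2 ages did not overlap (2 members higher and 0 lower, against 2.61% and 6.67% of all miRNAs in CPM, and the same counts against 5.22% and 6.09% with TMM scaling).

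The widest fold range within a group was that of miR-98 in EX at 30 months. In EX it had 322, 258 and 472 CPM at 20 months, 369, 276 and 309 CPM at 25 months and 489, 72.8 and 263 CPM at 30 months. The value of steer 2 at 30 months rests on 72.2 counts in the library with the fewest counts of all. In that library 36 miRNAs had whole counts within a factor of 1.25 of a level of 73 counts, and miR-98 stood at 0.988 times this level, the only case among the members at 30 months below 5 times the level of its library. The log2 fold change of miR-98 from 25 to 30 months was −0.89 (standard error 0.56, FDR 0.328 by edgeR), with directions that differed among the steers.

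In FC the fall of let-7g from 25 to 30 months was again the 1 call among the 9 members. Over all miRNAs 15.6% were called, 10.1% lower and 5.59% higher. let-7g had 7442, 8464 and 13895 CPM in steers 1, 2 and 3 at 25 months and 4064, 2712 and 3700 CPM at 30 months. The groups did not overlap, and the highest value, that of steer 3 at 25 months, came from the same plasma sample as the highest let-7g value of EX. The log2 fold change was −1.63 (standard error 0.35, FDR 0.0234 by edgeR), with a fall in 3 of 3 steers. It was −1.22 (FDR 0.0459) without that plasma sample, and without steer 3 altogether it was −1.15 (FDR 0.0561), past the fold threshold and not past the FDR threshold. With the counts in their deposited rows the FDR was 0.0581.

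Most other members leaned the same way in FC. From 25 to 30 months 8 of 9 members had a log2 fold change below 0, with a median of −0.73 beside −0.20 for all 358 miRNAs, and 5 members lay lower at 30 months without overlap in CPM, against 21.8% of all miRNAs, and 0 higher, against 20.7%. With TMM scaling these counts were 4 lower, against 26%, and 0 higher, against 18.2%, and let-7c overlapped. None of the 7 members below 0 other than let-7g was called. let-7c came nearest with a log2 fold change of −1.01 (standard error 0.34, FDR 0.0691), from 1253, 1352 and 1685 CPM to 881, 406 and 1139 CPM. let-7a-5p had −0.90 (standard error 0.32, FDR 0.0750) and let-7d −0.73 (standard error 0.27, FDR 0.0844), both by edgeR. miR-98, on the counts taken from its CPM values, had −0.67 (standard error 0.24, FDR 0.0750), against −2.93 (FDR 0.144) with the counts in their deposited rows.

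The 3 members nearest to 0 in FC were let-7b, let-7i and let-7e. let-7i had a log2 fold change of −0.17 (standard error 0.27, FDR 0.651 by edgeR) and was higher at 30 months in 1 of 3 steers. let-7b had 10950, 10545 and 8124 CPM at 25 months and 12403, 7793 and 13436 CPM at 30 months, and the groups overlapped (log2 fold change 0.05, 95% confidence interval −0.52 to 0.63). let-7e had 173, 142 and 61.1 CPM at 25 months and 94.6, 52.6 and 208 CPM at 30 months, lower in steers 1 and 2 and higher in steer 3. Its log2 fold change was −0.20 with an interval from −1.42 to 1.02, so a change of either sign was not detectable at this spread.

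Between 20 and 30 months in FC, let-7g was called once more as 1 of 9 members, beside 6.98% of all miRNAs called, 4.19% lower and 2.79% higher. It had 9137, 9376 and 9262 CPM at 20 months, and the log2 fold change was −1.43 (standard error 0.35, FDR 0.0450 by edgeR). It was lost without steer 1 (−1.63, FDR 0.0800) or steer 2 (−1.14, FDR 0.238), and kept without steer 3 (−1.41, FDR 0.0375). The FDR was 0.0571 with DESeq2 size factors and 0.0663 with the deposited rows. let-7f came next, from 4332, 4666 and 5539 CPM to 2733, 1524 and 2194 CPM, with a log2 fold change of −1.17 (standard error 0.35, FDR 0.0748). miR-98 and let-7d followed at −0.78 and −0.86 (FDR 0.0748 and 0.0759), and miR-98 had −3.94 (FDR 0.101) with the deposited rows. In CPM 6 members lay lower at 30 months without overlap, against 22.1% of all miRNAs, and 0 higher, against 14.8%. With TMM scaling 5 lay lower, against 23.2%, and 0 higher, against 15.4%. The comparisons with 25 and with 20 months share the libraries of 30 months, so these values are not independent of those above.

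Between 20 and 25 months in FC, 0 members and 0% of all miRNAs were called by edgeR, and 0 members had an unadjusted p under 0.05 (13 of 358 miRNAs). No member had CPM values without overlap in either direction, against 2.79% of all miRNAs in each, nor with TMM scaling, against 3.63% higher and 1.4% lower. The confidence intervals of the members were wide, from −0.55 to 0.60 for let-7b and from −0.63 to 1.68 for let-7e.

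**Figure D4:**
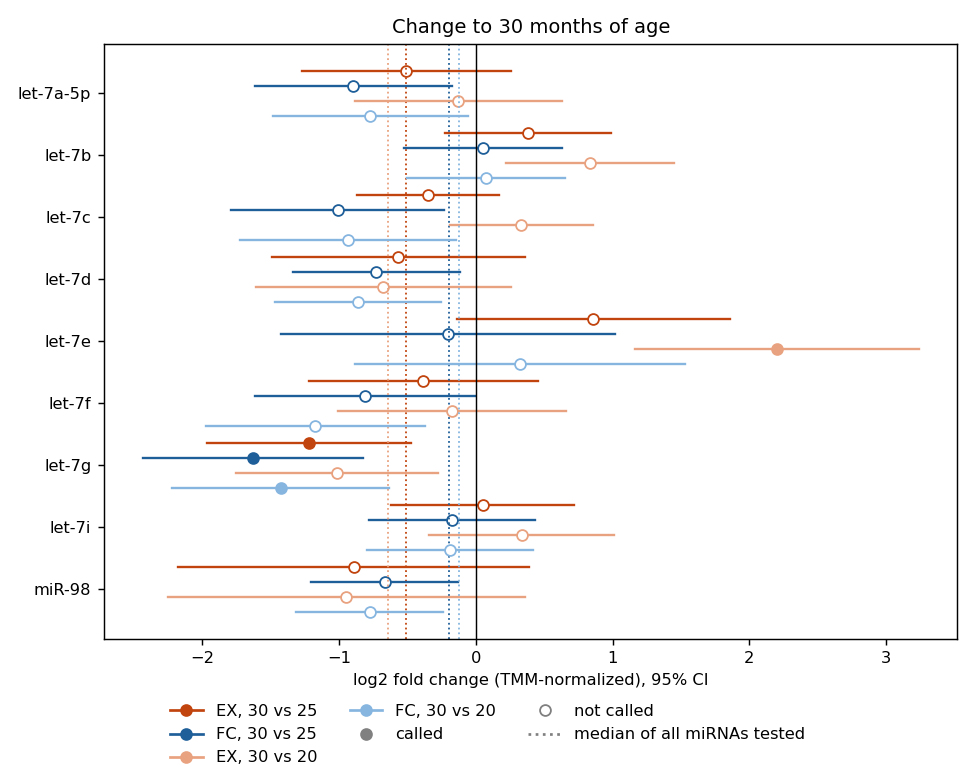
log2 fold change of each member at 30 months against 25 and against 20 months in EX and FC (horizontal axis, TMM-normalized, edgeR), with 95% confidence intervals as bars. Filled points were called and dotted lines are the medians of all miRNAs tested; let-7g lies left of 0 in all 4 comparisons (−1.01 to −1.63) and is called in 3, and let-7e in EX from 20 to 30 months (2.20) is the 1 call to the right.

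The EX and FC fractions from each plasma sample were compared by age in 1 edgeR fit of all 18 libraries, with plasma sample as a block, over the 330 miRNAs that passed the filter in both fractions. Here a member was called at FDR under 0.05 with no threshold on the fold change. At 20 months all 9 members had a log2 fold change below 0, that is, lower in EX (median −0.55, beside −0.14 for all miRNAs), and 2 of 9 were called lower, beside 9.39% of all miRNAs called, 6.06% lower and 3.33% higher.

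These were let-7i and let-7f. let-7i had 5440, 6377 and 7256 CPM in EX and 11817, 11177 and 15100 CPM in FC of steers 1, 2 and 3, with a log2 fold change of −1.04 (standard error 0.14, FDR 0.00243 by edgeR). let-7f had 2606, 2812 and 2636 CPM in EX and 4332, 4666 and 5539 CPM in FC, with −0.89 (standard error 0.14, FDR 0.00387). Both were lower in EX in 3 of 3 plasma samples, with no overlap. The call of let-7i was lost without steer 1 (−0.84, FDR 0.0566). Both calls rest on the pairing of fractions by plasma sample, since without a block the FDR was 0.135 for let-7i and 0.609 for let-7f. In CPM 5 members lay lower in EX without overlap, against 13.6% of all miRNAs, and 0 higher, against 7.58%. TMM factors for single values were set within each fraction, apart from those of the joint fit, and do not scale EX against FC. With that scaling only let-7f and let-7i, 2 members, lay lower, against 9.7%, and 0 higher, against 13.3%.

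At 25 months 1 of 9 members was called, let-7i, lower in EX, beside 6.97% of all miRNAs called, 4.85% lower and 2.12% higher. It had 7614, 7120 and 7057 CPM in EX against 10848, 10037 and 13413 CPM in FC (log2 fold change −0.66, standard error 0.14, FDR 0.0179 by edgeR). The groups did not overlap in CPM, where let-7i and miR-98, 2 members, lay lower in EX without overlap, against 11.2% of all miRNAs, and 0 higher, against 4.55%. With TMM scaling within each fraction both overlapped, 0 members lay lower, against 7.88%, and 1 (let-7e) lay higher, against 5.76%. The call was lost when any 1 steer was left out (−0.44 to −0.60, FDR 0.101 to 0.221) and without the plasma of steer 3 at 25 months (−0.40, FDR 0.341). Without a block its FDR was 0.515, and with the deposited rows 0.0605. let-7e already stood higher in EX in 3 of 3 plasma samples, with a log2 fold change of 0.80 (standard error 0.33) and an FDR of 0.268.

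At 30 months 5 of 9 members had a log2 fold change above 0. let-7b and let-7e were called higher in EX, 2 of 9 members, beside 22.1% of all miRNAs called, 4.85% higher and 17.3% lower. let-7e had 489, 403 and 609 CPM in EX against 94.6, 52.6 and 208 CPM in FC, with a log2 fold change of 2.03 (standard error 0.34, FDR 0.00296 by edgeR). Without steer 1 it was 1.71 (FDR 0.0519). let-7b had 26726, 23943 and 16212 CPM in EX against 12403, 7793 and 13436 CPM in FC, with 0.74 (standard error 0.22, FDR 0.0439). The call of let-7b was lost without steer 1 (0.41, FDR 0.386), without steer 2 (0.33, FDR 0.357) and without the plasma of steer 3 at 25 months (0.63, FDR 0.0818).

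Among the others, let-7c stood higher in EX in 3 of 3 plasma samples, with 1524, 1635 and 1518 CPM against 881, 406 and 1139 CPM, and just missed the threshold (log2 fold change 0.80, standard error 0.27, FDR 0.0543 by edgeR). let-7i, called lower in EX at the earlier ages, was lower in EX in 2 of 3 plasma samples, with 13284, 9275 and 8521 CPM against 13355, 8277 and 11728 CPM (−0.36, standard error 0.14, FDR 0.0895). It was called lower in EX without steer 1 (−0.68, FDR 0.0396), without steer 2 (−0.60, FDR 0.0464) and without the plasma of steer 3 at 25 months (−0.47, FDR 0.0384). let-7g did not separate the fractions (−0.04, 95% confidence interval −0.46 to 0.38). The median of the members was 0.24, beside −0.56 for all 330 miRNAs, and in CPM 3 members lay higher in EX without overlap, against 13% of all miRNAs, and 0 lower, against 16.7%. With TMM scaling within each fraction 2 members (let-7c and let-7e) lay higher, against 9.09%, and 0 lower, against 19.7%.

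**Figure D5:**
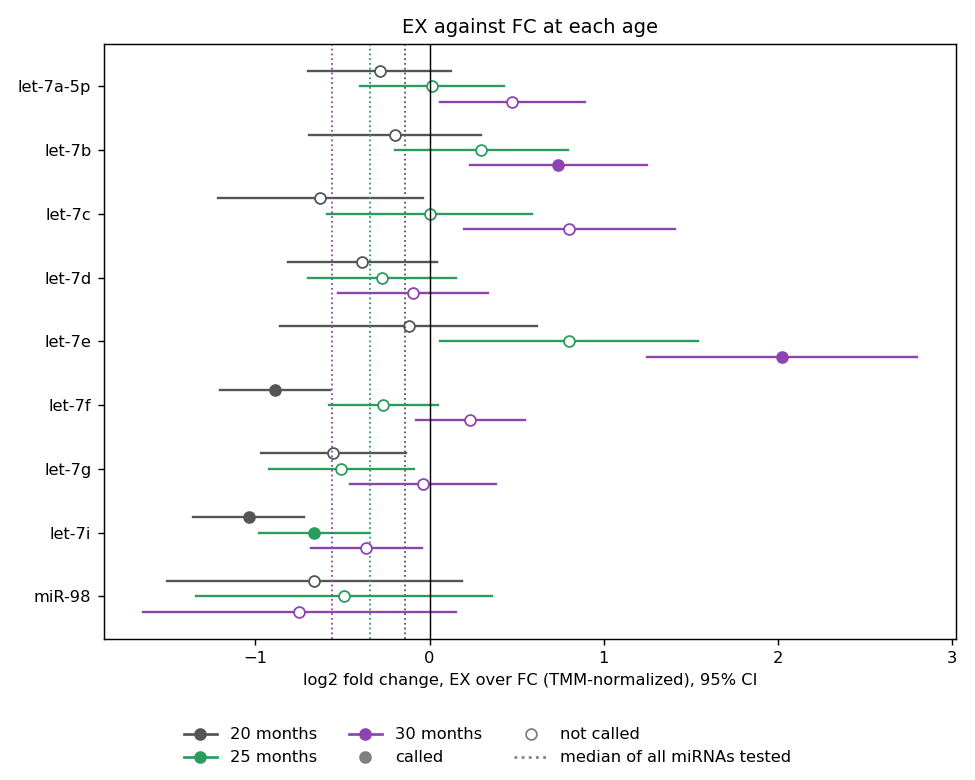
log2 fold change of EX over FC for each member at 20, 25 and 30 months (horizontal axis, TMM-normalized, edgeR with plasma sample as block), with 95% confidence intervals as bars. Filled points were called and dotted lines are the medians of the 330 miRNAs tested; let-7i lies at −1.04, −0.66 and −0.36 and let-7e at −0.12, 0.80 and 2.03 at the 3 ages.

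Whether the change from 25 to 30 months differed between the fractions was tested by the interaction of fraction and age in the same fit. By edgeR 0 of 9 members were called, beside 6.97% of all miRNAs (1.21% with EX minus FC above 0 and 5.76% below 0), with 2 members at unadjusted p under 0.05 (72 of 330 miRNAs). Given as the signed log2 change in EX minus that in FC, let-7e had 1.23 (standard error 0.47, FDR 0.163), from 0.86 in EX and −0.20 in FC when each fraction was fitted alone. let-7f had 0.50 (standard error 0.20, FDR 0.168), from −0.38 in EX and −0.81 in FC, that is, the lower estimate was in FC. For 8 of 9 members the estimate was above 0, with a median of 0.46 beside −0.32 for all miRNAs. For let-7g, which fell in both fractions, the difference was 0.47 with a 95% confidence interval from −0.12 to 1.06. From 20 to 25 months 0 members and 0% of all miRNAs were called. From 20 to 30 months, a test added after the values at each age were seen, 3 of 9 members (let-7c, let-7e and let-7f) were called with a difference above 0, beside 8.79% of all miRNAs called, 2.12% above 0 and 6.67% below 0. All 3 calls were lost without a block (FDR 0.0950 to 0.291) and with steer only as the block (FDR 0.0901 to 0.261).

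Genes of the family lie in groups with other miRNA genes, and the partners were read as well. The RefSeq table for ARS-UCD2.0 lists 12 let-7 and miR-98 genes. Within 60 kb of each other lie MIRLET7A-1, MIRLET7F-1 and MIRLET7D, likewise MIRLET7A-3 and MIRLET7B, and MIR98 and MIRLET7F-2. MIRLET7C has MIR99A and MIR125B-2 beside it, MIRLET7A-2 has MIR100 and MIR125B-1, and MIRLET7E has MIR99B and MIR125A. Other genes within this distance, not taken as partners, were MIR12038 by MIRLET7E, MIR135A-1 by MIRLET7G, and MIR2443 and MIR3596 by MIRLET7A-3 and MIRLET7B. MIRLET7I has no miRNA gene that near. let-7a-5p and let-7f are made from several genes, so their levels do not belong to 1 group. The partners are 5 miRNAs of these neighbours and the passenger strand let-7a-3p, and all 6 passed the filter in both fractions.

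Of the partners, 1 was called lower from 25 to 30 months in each fraction (beside 14.2% of all miRNAs in EX and 15.6% in FC), and this was miR-99a-5p, the neighbour of let-7c. In EX it went from 555 ± 74.4 to 329 ± 122 CPM (mean ± SD, n = 3 each; log2 fold change −1.26, standard error 0.33, FDR 0.0389 by edgeR) and in FC from 593 ± 68.1 to 291 ± 68.5 CPM (−1.18, standard error 0.27, FDR 0.0261). From 20 to 30 months it was the 1 partner of 6 called in EX, beside 13.3% of all miRNAs (−1.49, standard error 0.33, FDR 0.0202). In FC the 1 partner called between these ages, beside 6.98% of all miRNAs, was miR-125a, a neighbour of let-7e, which rose from 1253 ± 144 to 3179 ± 653 CPM (1.37, standard error 0.30, FDR 0.0300).

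let-7e and miR-125a were called in different fractions. In EX miR-125a went from 1748 ± 435 to 3125 ± 936 CPM between 20 and 30 months (mean ± SD, n = 3 each), a log2 fold change of 0.52 (standard error 0.32, FDR 0.324 by edgeR), where let-7e had 2.20. In FC let-7e had 0.32 (standard error 0.53, FDR 0.701), where miR-125a had 1.37. The difference between EX and FC in this change was called for miR-125a (EX minus FC −0.72, standard error 0.18, FDR 0.0355), by the interaction added after the values were seen. The difference between let-7e and miR-125a was not tested. Between EX and FC 0 of 6 partners were called by edgeR at 20, 25 and 30 months, beside 9.39%, 6.97% and 22.1% of all miRNAs. At unadjusted p under 0.05 the counts were 2 (miR-125a and miR-125b), 0 and 1 (miR-125a), and nothing is read from so few partners. The passenger strand let-7a-3p was low, with at most 44.0 CPM in EX, where it was 0 in some libraries at 30 months, and at most 21.7 CPM in FC.

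The miRNAs whose level was most like the family sum, by the mean of the Pearson correlations of log2(CPM + 1) over 9 EX and over 9 FC libraries, were *bta-miR-181b* (0.591 and 0.788), *bta-miR-423-5p* (0.766 and 0.589) and *bta-miR-11992* (0.522 and 0.742). These libraries come from 3 steers and share plasma samples and library totals, and the values are a description.

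Other properties of the libraries moved with age beside the family. The lymphocyte markers miR-150 and miR-342 together held 113415 to 324692 CPM in EX at 20 and 25 months and 13723 to 27464 CPM at 30 months, and in FC 79355 to 230827 CPM and 14651 to 26926 CPM, so that the groups did not overlap. The highest marker sum of each fraction was in the plasma of steer 3 at 25 months, the sample with the highest let-7g. The red cell markers (miR-451, miR-486 and miR-144) ranged from 25390 to 92244 CPM in EX and from 10720 to 46802 CPM in FC, with overlap among the ages. The platelet and myeloid marker miR-223 overlapped among the ages in EX, and in FC it stood higher at 30 months (48799 to 59516 CPM) than at 25 months (13252 to 47324 CPM), with 20 months (28014 to 62526 CPM) overlapping both. The hepatocyte marker miR-122 overlapped among the ages in both fractions. All 7 markers were found, and their part in the values of the family was not tested. In plasma, fewer cells of a type releasing RNA and less RNA released per cell cannot be told apart.

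Changes with age also differed by base composition. In EX from 25 to 30 months, the 53 miRNAs other than members with under 35% G and C had a median log2 fold change of −2.05, against −0.34 for the 34 with 35 to 40% and −0.16 for the 168 with 46% or more. let-7f and miR-98, at 31.8% G and C, had −0.38 and −0.89, above that median. let-7a-5p and let-7g, at 36.4%, had −0.51 and −1.22, and the other 5 members, at 40.9 to 45.5%, had a median of 0.05 beside −0.46 for the 81 other miRNAs in their range. In FC from 25 to 30 months, the median of the other miRNAs was −0.68 for the 55 with under 35% G and C, −0.85 for the 37 with 35 to 40%, −0.16 for the 85 with 40 to 46% and 0.16 for the 172 with 46% or more. let-7g there had −1.63 and let-7a-5p −0.90, both in the range with −0.85. let-7b has the highest share of G and C among the members and let-7g one of the lower ones. The part of base composition in these values was not tested.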

How the data were processed

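The authors trimmed the 51 bp single-end reads with Cutadapt 5.0 and Trimmomatic 0.39, mapped them with miRDeep2 to a Japanese Black genome built on ARS-UCD1.2, and deposited expected counts per known (miRBase) or candidate miRNA (not whole where a read is divided) and CPM values, that is, other normalized values with a total row. Counts were realigned to the CPM table where they differed by over 0.001 (relative) or 0.02 counts, then rounded. edgeR 4.0.16 in R 4.3.3 (TMM, glmQLFit, glmQLFTest) tested all miRNAs past the filter. The standard error of a log2 fold change was its size over the square root of its F statistic. Alternatives used DESeq2 1.42.0. Tables and figures used Python 3.11.15, pandas 2.3.3, numpy 2.4.6, scipy 1.17.1 and matplotlib 3.10.9. The fits were tested on simulated counts with known changes, as many up as down and without differences between steers or plasma samples. This did not test the use of the block, nor the scaling under unbalanced changes.

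Replicate numbers were taken as steers, hence the block. The study's methods state the same 3 animals at each age, but the labels do not tie a number to an animal. Age-adjusted profiles correlated at 0.0226 within and −0.0113 between steers in EX, 0.0918 and −0.0463 in FC, and 0.266 between fractions of 1 plasma sample against −0.134 otherwise. Each group of 3 was centred on its mean, which fixes the second value of each pair from the first, so it is no separate comparison. No libraries were copies (smallest chi-square per degree of freedom 196 over 18 pairs). The members and lists were chosen with earlier results of these data known. Named miRNAs are all 9 members, 6 partners where called (let-7a-3p and miRNAs of genes beside let-7 genes), the 3 most like the family sum and the cell markers. The values of miR-125a in EX, of let-7a-3p and the count level were chosen after they were seen. P values of the age tests measure the spread left after the steer block. Those between fractions measure the spread within plasma samples, which were treated as independent although they come from 3 animals. The qPCR and carcass records were not analysed here.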

Additional observations from a re-analysis of the deposited data

Results flagged for a closer look

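For 3 of 9 members (let-7c, let-7e and let-7f) the signed log2 change from 20 to 30 months was higher in EX than in FC, beside 8.79% of all miRNAs called and 2.12% called in this direction (interaction of fraction and age, edgeR, FDR under 0.05, no fold threshold). This test was added after the EX and FC values at each age had been seen. The change in EX minus that in FC was 2.14 for let-7e (standard error 0.47, FDR 0.0251), 1.43 for let-7c (standard error 0.37, FDR 0.0441) and 1.12 for let-7f (standard error 0.20, FDR 0.0146). With each fraction fitted alone, let-7e had 2.20 in EX and 0.32 in FC, let-7c had 0.33 and −0.93, and let-7f had −0.17 and −1.17, so that for let-7c and let-7f the estimate farther from 0 was in FC. let-7e rose in EX (88.9 ± 30.6 to 501 ± 104 CPM), with 93.1 ± 31.8 and 119 ± 80.7 CPM in FC (mean ± SD, n = 3 each). let-7c had 966 ± 91.9 and 1559 ± 66.2 CPM in EX against 1447 ± 96.0 and 809 ± 372 CPM in FC, with no overlap between the ages in either fraction in CPM. With TMM scaling its ages overlapped in both. let-7f had 2684 ± 111 and 3063 ± 1078 CPM in EX against 4846 ± 624 and 2150 ± 606 CPM in FC.

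Without 1 steer, let-7c and let-7e were not called in any of the 3 fits (let-7c 0.90 to 1.40, FDR 0.0600 to 0.205; let-7e 1.67 to 2.09, FDR 0.0671 to 0.166), and let-7f was called only without steer 3 (0.86, FDR 0.0327). Without a block all 3 calls were lost (FDR 0.0950 to 0.291), as with steer only as the block (FDR 0.0901 to 0.261). Without the plasma of steer 3 at 25 months let-7c had 1.24 (FDR 0.0621). From 20 to 25 months 0 members were called by edgeR, and 1 member, let-7f, had an unadjusted p under 0.05 (11 of 330 miRNAs).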

How the results depend on the processing

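Counts are members called of 9, each followed in parentheses by the number called over all miRNAs. EX from 25 to 30 months had 1 (49), and 0 with DESeq2 size factors (45), library totals only (42), no filter (37), each steer left out (0 to 0; 1 to 25) and without the plasma of steer 3 at 25 months (25), an alternative chosen after seeing the data. EX from 20 to 30 months had 1 (46), and 2 with library totals only (28), the likelihood ratio test (83), no replicate block (54) or without that plasma (35), and 0 to 1 without 1 steer (0 to 15). FC from 25 to 30 months had 1 (56), then 2 with no filter (72) or the likelihood ratio test (79), 0 with the rows as deposited (10), and 0 to 1 without 1 steer (10 to 51). FC from 20 to 30 months had 1 (25), then 0 with DESeq2 size factors (21) or the deposited rows (2), 2 with library totals only (28), the likelihood ratio test (53), DESeq2 (52) or without that plasma (31), 3 with no filter (52), and 0 to 1 without 1 steer (5 to 21).

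EX against FC at 20 months had 2 (31), then 0 with no replicate block (2) or steer only as block (5), 3 with DESeq2 (54), and 1 to 2 without 1 steer (9 to 13). At 25 months it had 1 (23), then 2 with DESeq2 (43), 0 with no replicate block (5), steer only as block (8), the deposited rows (21) or without that plasma (15), and 0 to 0 without 1 steer (5 to 12). At 30 months it had 2 (73), then 4 with DESeq2 size factors (87), 5 with library totals only (89) or DESeq2 (151), 3 with no filter (62), the likelihood ratio test (113) or the deposited rows (92), 1 with steer only as block (59), and 1 to 4 without 1 steer (61 to 70). The interaction from 25 to 30 months had 0 (23), and 1 with library totals only (37) or DESeq2 (59). From 20 to 30 months it had 3 (29), then 6 with library totals only (32) or DESeq2 (75), 5 with the likelihood ratio test (62), 4 with DESeq2 size factors (38), 2 without that plasma (40), 0 with no replicate block (30) or steer only as block (21), and 0 to 2 without 1 steer (0 to 22). From 20 to 25 months it had 0 (0), and 1 with DESeq2 (2). No called member changed direction. Counts over all miRNAs moved as well under most settings, and the cause was not tested.

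The mean family sum was 33575 CPM in EX at 20 months and 42676 CPM at 25 months with TMM scaling. In CPM without TMM scaling, the mean sum without let-7b was 21956, 24605 and 25356 CPM in EX and 34879, 32621 and 21520 CPM in FC at 20, 25 and 30 months.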
